A study of Mus musculus with 6 samples.

Results

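A set of 10 genes that mark intestinal differentiation were read on 6 one-colour microarrays of mouse stomach lining: Cdx1, Cdx2, Muc2, Tff3, Vil1, Fabp1, Fabp2, Gpa33, Cdh17 and Guca2a. They were taken by name, as every probe that was no control and whose gene name in the scanner files was one of the 10. All 10 genes had a probe, 12 probes in all, out of 31689 genes and unnamed transcripts on the array. The tissue was mucosa of the glandular stomach, stripped off the muscle, from C57BL/6J mice. One group was A4gnt null and had 1 mouse each of 5, 10 and 50 weeks, and the other was wild type with 1 mouse of each of the same ages. A4gnt encodes the enzyme that adds terminal α1,4-linked N-acetylglucosamine to the O-glycans of gland mucin. How the A4gnt locus was altered is not stated in the labels.

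The intestine and the stomach come from adjoining parts of the gut tube, and the homeobox factors Cdx1 and Cdx2 hold the intestinal programme in place. The appearance of the Cdx factors in the stomach is a known feature of intestinal metaplasia, in which gastric glands take on goblet cells and absorptive cells. Some genes of the programme, such as Vil1 and Tff3, are not restricted to the intestine, and Fabp1 is also a major gene of the liver. The comparison of the genotypes asks which of these genes differ in gastric mucosa without the enzyme.

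The scanner software called 54.8% to 59.2% of an array's spots well above background, and the lowest signal so called lay between 10.1 and 11.6 units. A4gnt itself gave signals of 2.30, 2.94 and 2.11 on the null arrays of 5, 10 and 50 weeks, not well above background, against 165, 325 and 264 on the wild-type arrays. Above background on all 6 arrays were 8 of 9 parietal (acid-secreting) cell markers, 6 of 8 chief (enzyme-secreting) cell markers and 7 of 7 surface mucous cell markers. The summed signal of 9 parietal cell markers, as a multiple of the array's 75th percentile, was 213 to 624 on null arrays and 483 to 747 on wild-type arrays. That of the chief cell markers was 648 to 1532 on null arrays and 1589 to 2124 on wild-type arrays, without overlap, and the part of either cell type in the members' values was not tested. The null arrays shared a slide and the wild-type arrays another, so slide and genotype cannot be told apart. Markers of neighbouring organs varied between arrays. The summed signal of 9 liver markers, on the same scale, was 7.50 to 20.3 on null arrays and 15.4 to 86.2 on wild-type arrays. That of 10 pancreas markers was 24.8 to 437 on null arrays and 119 to 548 on wild-type arrays. Amy2a5 had the highest signal in the pancreas sum on every array. The median difference of the 10 pancreas markers (log2, null minus wild type) was -1.48, -0.11 and -4.27 at 5, 10 and 50 weeks. The sum of 8 squamous markers of the forestomach was 7.50 to 8.94 on null arrays and 9.55 to 20.9 on wild-type arrays, without overlap. At 5 weeks the 2 sums were close, at 8.94 and 9.55. Of 5 such markers tested, 1, Ivl, was higher and 2, Krt5 and Trp63, were lower on the null array at all 3 ages. Among all genes tested, 26.1% were higher and 26.1% lower. Krt5 gave 16.6, 20.7 and 37.5 on the null arrays of 5, 10 and 50 weeks, against 18.4, 470 and 612 on the wild-type arrays. Lor gave 45.8, 41.0 and 33.6 against 22.5, 1235 and 2725, and Ivl 159, 123 and 98.3 against 3.88, 50.9 and 17.7. Krt4, Krt14 and Krt6a, not tested, were above background on no null array but in the wild-type mouse of 50 weeks. The part of the forestomach or the pancreas in the members' values was not tested. Since each age holds 1 mouse per genotype, a value for one age alone has no replicate check. In whole mucosa, fewer cells of a type and less RNA per cell cannot be told apart.

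The sequences shown here are the stretches of 250 bases before the annotated start of 4 members, chosen because Gpa33 and Vil1 were higher and Fabp1 lower on the null array at all ages, and because Muc2 is the goblet cell mucin. They come from RefSeq for GRCm38.p6, from which 7 of the 10 members were read. Tff3 and Cdh17 had no entry under their symbols, and Cdx1 was not searched. Capitals mark the core TTTAT that Cdx proteins bind, or ATAAA where it reads on the other strand.
Gpa33, chr1:166129971-166130220, plus strand: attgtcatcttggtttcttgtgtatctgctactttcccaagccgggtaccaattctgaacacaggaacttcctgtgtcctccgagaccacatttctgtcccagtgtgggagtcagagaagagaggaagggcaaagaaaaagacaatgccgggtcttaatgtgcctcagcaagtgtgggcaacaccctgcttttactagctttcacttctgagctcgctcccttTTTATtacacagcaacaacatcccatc
Vil1, chr1:74409134-74409383, plus strand: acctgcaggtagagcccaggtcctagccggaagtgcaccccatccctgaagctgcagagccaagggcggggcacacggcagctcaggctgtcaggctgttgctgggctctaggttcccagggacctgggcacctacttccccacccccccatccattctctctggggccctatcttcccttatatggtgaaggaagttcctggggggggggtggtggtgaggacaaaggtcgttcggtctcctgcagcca
Fabp1, chr6:71199629-71199878, plus strand: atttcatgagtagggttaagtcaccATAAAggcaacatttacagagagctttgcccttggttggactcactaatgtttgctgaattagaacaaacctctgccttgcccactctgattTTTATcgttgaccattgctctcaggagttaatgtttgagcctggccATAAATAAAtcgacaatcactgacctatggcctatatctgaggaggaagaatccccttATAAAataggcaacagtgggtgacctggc
Muc2, chr7:141690090-141690339, plus strand: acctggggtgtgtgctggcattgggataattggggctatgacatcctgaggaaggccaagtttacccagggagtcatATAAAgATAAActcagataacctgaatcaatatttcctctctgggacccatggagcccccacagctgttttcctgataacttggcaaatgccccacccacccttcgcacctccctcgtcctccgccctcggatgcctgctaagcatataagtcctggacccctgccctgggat
The core was found 1 time before Gpa33, 5 times before Fabp1, where 2 of the matches overlap, 2 times before Muc2 and 0 times before Vil1. It was present in 4 of the 7 members searched (57.1%), and in 37.3% of the 32851 promoters searched on both strands over the same window. The letters also occur in TATA elements, and a match is a description of these letters and not of a binding site. The motif CAAAGTCCA of Hnf4 was in none of the 7 windows (0.384% of all promoters), and the motif AGATAA of Gata factors was 2 times in Muc2 and 2 times in Guca2a (9.99% of all promoters).

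Gpa33 has 2 probes, and the fainter one was printed here because it repeats the reading of the brighter one elsewhere in the gene. It lies at mm9 chr1:168082754-168082813, from base 355 of the transcript NM_021610, and 1 of its forward reading frames has no stop codon.
Gpa33 probe: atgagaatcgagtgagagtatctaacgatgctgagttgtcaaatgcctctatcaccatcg

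The members split into genes that were read on every array and genes that were read on some arrays only. Tff3, Vil1, Fabp1, Fabp2 and Gpa33 were well above background on all 6 arrays and Guca2a on 5. Cdx2 was above on 3, Muc2 on 2, and Cdx1 and Cdh17 on 1. The null array of 10 weeks was the one on which all 10 members were above background. It called 56.5% of all its spots well above background, within the range of 54.8% to 59.2% over the arrays. The null arrays of 5 and 50 weeks had 6 and 7 members above, and the wild-type arrays of 5, 10 and 50 weeks had 5, 6 and 8.

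**Figure D1:**
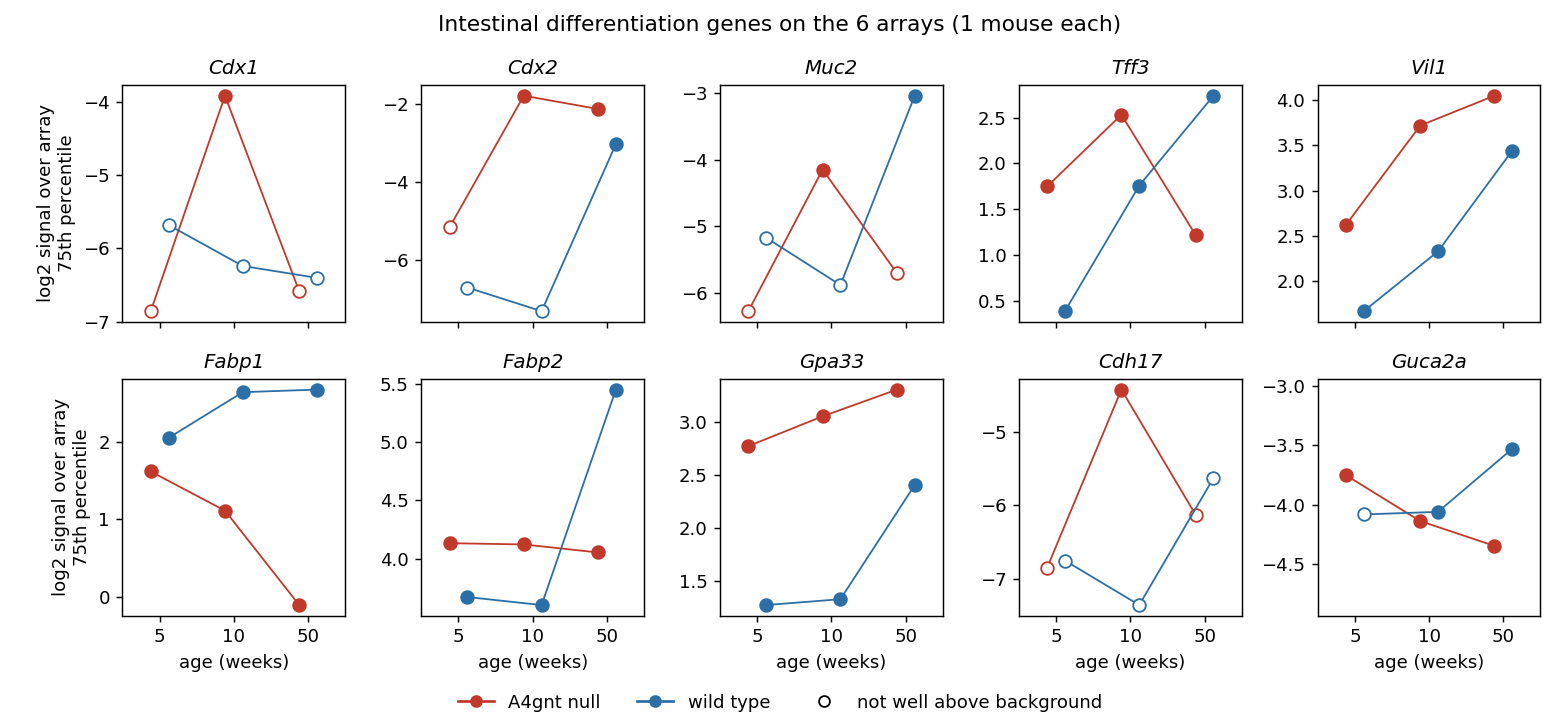
Signal of each member on the 6 arrays, as log2 over the array's 75th percentile (vertical axis), by age in weeks (horizontal axis), with A4gnt-null mice in red and wild-type mice in blue, 1 mouse per point; open points were not well above background. Gpa33 and Vil1 lie higher in the null mouse at each age, and Fabp1 lower.

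A gene was tested for a genotype effect if it was well above background on at least 3 arrays, which 7 of the 10 members were; Cdx1, Muc2 and Cdh17 were not tested. Over the 3 ages, 0 of the 7 passed limma's test with Benjamini-Hochberg adjustment over 17860 genes, at a threshold of 0.05. The share of all genes called was 0%. At an unadjusted p under 0.05, 2 members were higher, Gpa33 and Vil1, against 11% of all genes, and 1 was lower, Fabp1, against 12.6% of all genes. The members tested had a median difference of 0.20 (log2, null minus wild type), beside -0.03 for all genes tested.

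Cdx2, the factor that sets intestinal identity (NM_007673; probe at mm9 chromosome 5, 148112547 to 148112606), gave signals of 7.05, 94.5 and 91.8 on the null arrays of 5, 10 and 50 weeks, against 2.46, 2.25 and 35.3 on the wild-type arrays. It was above background in the null mice of 10 and 50 weeks and in the wild-type mouse of 50 weeks, and in neither mouse of 5 weeks. At 10 weeks it was at least 9.65-fold higher on the null array. At 50 weeks, where both arrays read it, the difference was 0.90 on the log2 scale, or 1.87-fold. Over the 3 ages Cdx2 differed by 2.65 ± 1.01 (log2, ± SE, n = 3 per genotype; limma adjusted p = 0.222), a value that rests in part on signals not above background. Without the 10-week pair the difference was 1.22, and with a normexp background correction 0.64.

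Cdx1 (NM_009880; mm9 chromosome 18, 61178558 to 61178617), its close relative, gave 2.18, 21.7 and 4.20 on the null arrays and 5.01, 4.73 and 3.42 on the wild-type arrays. It was above background on the null array of 10 weeks alone, where it was at least 2.21-fold higher. Genes read on that array and no other made up 0.867% of all genes above background on at least 1 array. Cdx1 and Cdx2 thus had their highest signal on the same array.

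Among proteins of the cell border, Gpa33 and Vil1 stood higher on the null array at all 3 ages. They were 2 of the 5 members above background on all arrays, and 27% of all such genes were higher in the null array at all 3 ages. Gpa33 (mm9 chromosome 1, 168096513 to 168096572), a surface glycoprotein of intestinal epithelium, gave signals of 1729, 2723 and 3989 on the null arrays and 621, 897 and 1534 on the wild-type arrays. The scaled levels of the 2 groups did not overlap, with every null array above every wild-type array, as for 13.1% of genes read on every array. It differed by 1.5, 1.73 and 0.90 at 5, 10 and 50 weeks, and by 1.38 ± 0.20 over the ages (limma adjusted p = 0.126). With normexp the same difference was 1.29 and passed (limma adjusted p = 0.0405); over the other alternatives it lay between 1.20 and 1.61 and did not pass.

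The second Gpa33 probe, whose sequence is shown above, gave 70.7, 67.2 and 106.3 on the null arrays and 20.8, 24.4 and 37.9 on the wild-type arrays. Its differences were 1.78, 1.59 and 1.01, with a mean of 1.46 ± 0.40 (SD over 3 ages), beside 1.38 ± 0.43 for the brighter probe. Both probes thus gave the null array the higher signal at each age.

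Vil1 (NM_009509; mm9 chromosome 1, 74481982 to 74482041) encodes villin, which bundles actin in microvilli. It gave 1557, 4305 and 6648 on the null arrays and 819, 1797 and 3143 on the wild-type arrays. The difference was 0.95, 1.39 and 0.60 at 5, 10 and 50 weeks, and 0.98 ± 0.19 over the ages, or 1.97-fold (limma adjusted p = 0.141). The groups overlapped, since the wild-type mouse of 50 weeks lay above the null mouse of 5 weeks.

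Cdh17 (NM_019753; mm9 chromosome 4, 11744272 to 11744331), the liver-intestine cadherin, gave 2.19, 15.3 and 5.75 on the null arrays and 2.38, 2.17 and 5.85 on the wild-type arrays. It too was above background on the null array of 10 weeks alone, and was at least 1.56-fold higher there. On the arrays of 5 and 50 weeks it was not read in either genotype.

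**Figure D2:**
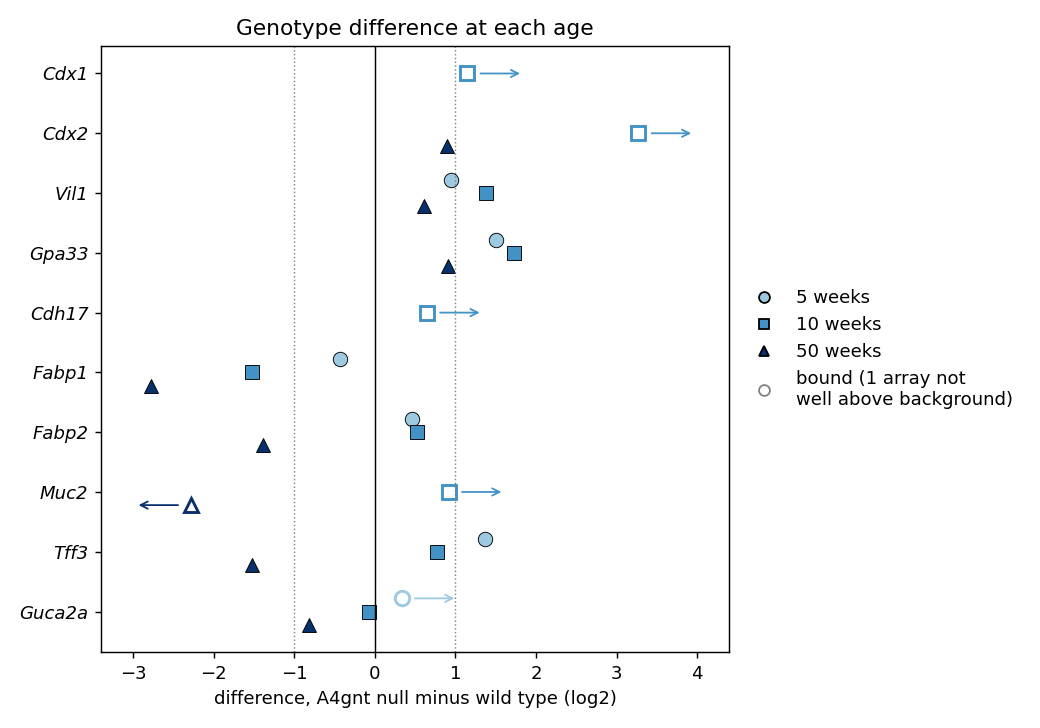
Difference of each member at 5, 10 and 50 weeks (horizontal axis, log2, A4gnt null minus wild type, 1 mouse against 1 mouse); open symbols with arrows are bounds where 1 array was not well above background, and dotted lines mark 2-fold. Gpa33 and Vil1 lie right of 0 at all ages and Fabp1 left of it, and Tff3 and Fabp2 lie left of 0 at 50 weeks alone.

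The fatty acid carriers of absorptive cells went different ways. Fabp1 (NM_017399; mm9 chromosome 6, 71154906 to 71154965), which binds fatty acids in liver and proximal intestine, gave 776, 708 and 374 on the null arrays and 1065, 2230 and 1849 on the wild-type arrays. Every null level lay below every wild-type level, which held for 11.1% of genes read on every array, and it was lower at all 3 ages, as 26.3% of them were. The difference was -0.43, -1.53 and -2.78 at 5, 10 and 50 weeks. Over the ages it was -1.58 ± 0.48, (± SE, n = 3 per genotype; limma adjusted p = 0.183). It was -2.16 when the 5-week pair was left out and -0.98 when the 50-week pair was.

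Liver markers varied on the same arrays. Their summed signal was 20.3, 8.18 and 7.50 on the null arrays of 5, 10 and 50 weeks, against 15.4, 86.2 and 18.2 on the wild-type arrays. All 9 liver markers were on the array, and 8 of them were above background on all 6 arrays. Albumin, Alb, gave 330, 39.0 and 25.7 on the null arrays and 236, 3424 and 394 on the wild-type arrays. The null array had the lower liver sum at 10 and 50 weeks. The part of liver RNA in the Fabp1 values was not tested.

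Fabp2 (NM_007980; mm9 chromosome 3, 122602276 to 122602335), the intestinal carrier, gave 4437, 5706 and 6692 on the null arrays and 3275, 4341 and 12636 on the wild-type arrays. Scaled to each array, the 3 null levels had an SD of 0.04 (log2) and the wild-type levels an SD of 1.05, with the wild-type mouse of 50 weeks highest and the groups overlapping. It differed by 0.46, 0.52 and -1.39 at 5, 10 and 50 weeks. Over the ages the difference was -0.14 ± 0.45 (95% confidence interval -1.37 to 1.1; limma adjusted p = 0.867), and without the 50-week pair it was 0.49.

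Goblet cells store the gel-forming mucin Muc2 together with the trefoil peptide Tff3, which protects and repairs the epithelium. The probe that represents Muc2 (mm9 chromosome 7, 148940000 to 148940059) gave 3.26, 18.5 and 7.74 on the null arrays and 7.13, 6.05 and 35.2 on the wild-type arrays. It was above background on 1 array of each genotype. At 10 weeks Muc2 was at least 1.89-fold higher on the null array, and at 50 weeks at least 4.85-fold lower. Its second probe was above background on no array.

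Tff3 (NM_011575; mm9 chromosome 17, 31262279 to 31262338) gave 850, 1895 and 937 on the null arrays and 336, 1208 and 1933 on the wild-type arrays. The difference was 1.36, 0.77 and -1.52 at 5, 10 and 50 weeks, and 0.20 ± 0.62 over the ages (limma adjusted p = 0.858). Leaving out the pair of 5, 10 or 50 weeks in turn gave -0.37, -0.08 and 1.07. In the wild type the oldest mouse had the highest level, and in the null group the mouse of 10 weeks.

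Summed smooth muscle signal put the 6 arrays in the same order as the scaled level of Tff3. The summed signal of 6 smooth muscle markers, all on the array and 5 of them above background on all arrays, was 18.6, 32.1 and 9.77 on the null arrays of 5, 10 and 50 weeks, against 5.21, 22.2 and 36.9 on the wild-type arrays. Among 2636 genes that varied across arrays, the 3 whose levels were most like those of Tff3 were Mylk, Actg2 and Myl9, all of smooth muscle contraction, with Pearson r of 0.985, 0.984 and 0.978 over the 6 arrays. These 6 points share their mice and arrays. The part of the muscle layer in the Tff3 values was not tested.

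**Figure D3:**
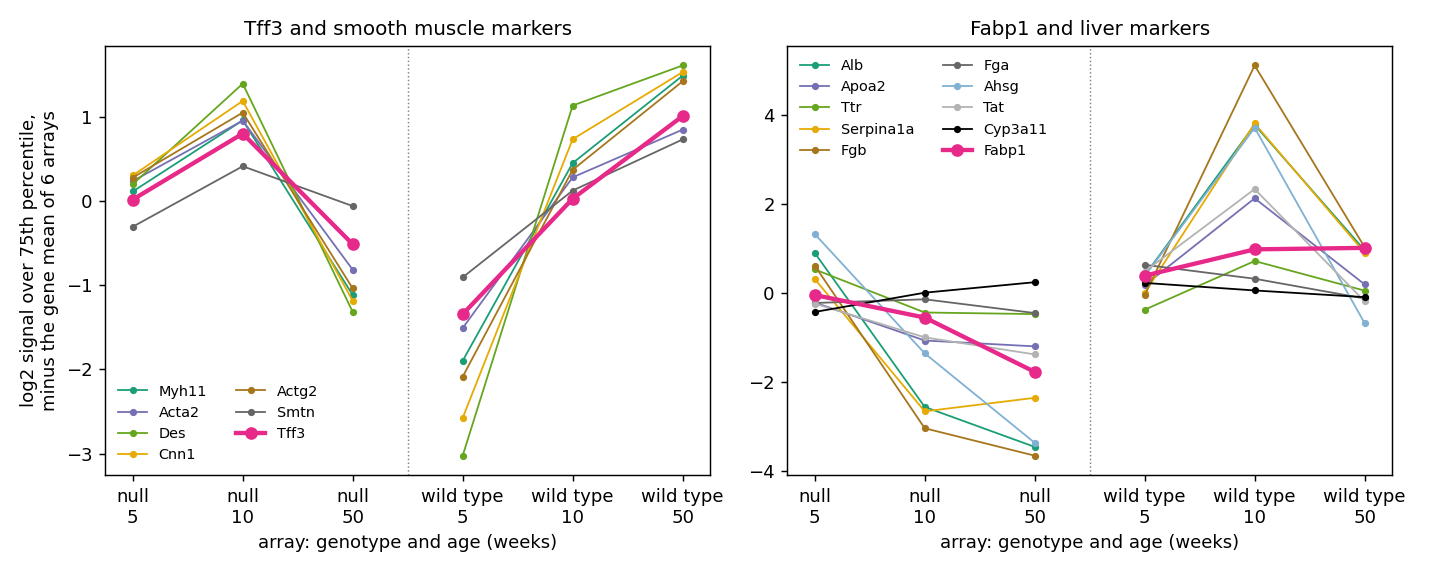
Levels of Tff3 with 6 smooth muscle markers (left) and of Fabp1 with 9 liver markers (right) on the null and then the wild-type arrays of 5, 10 and 50 weeks (horizontal axis); the vertical axis is log2 signal over the array's 75th percentile minus the gene's mean over the 6 arrays. Tff3 lies low with the muscle markers in the wild-type mouse of 5 weeks and high in that of 50 weeks, and several liver markers peak in the wild-type mouse of 10 weeks while Fabp1 is as high at 50 weeks.

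Guca2a (NM_008190; mm9 chromosome 4, 119311857 to 119311916) encodes guanylin, a peptide that drives fluid secretion in the gut. It stayed close to the detection limit, with 18.8, 18.6 and 19.8 on the null arrays and 15.2, 21.4 and 25.1 on the wild-type arrays. It differed by -0.08 and -0.82 at 10 and 50 weeks, and was at least 1.26-fold higher at 5 weeks, when wild type was not above background. Over the ages the difference was -0.19 ± 0.26 (95% confidence interval -0.90 to 0.52; limma adjusted p = 0.678).

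Whether the genotype difference changed with age was tested as the product of genotype and the log2 of age in weeks. Its slope is the change of the difference, null minus wild type, for each doubling of age. It was negative for all 7 members tested, and for 53.2% of all genes. For Cdx2, Vil1, Gpa33 and Fabp2 the difference was higher at 10 than at 5 weeks. The negative sign of their slopes thus rests on the 50-week pair. The median of the 7, -0.51, is the slope of Cdx2, which rests on signals not above background on 3 of the 6 arrays, both arrays of 5 weeks among them; the median of all genes was -0.01. The slope of Guca2a also includes 1 such array. None of the 7 passed after adjustment (limma adjusted p = 0.9996 for each), as 0% of all genes did. At an unadjusted p under 0.05, 4 members had a negative slope, namely Tff3, Fabp1, Fabp2 and Guca2a, against 1.36% of all genes, and 0 had a positive one, against 1.47%. Their slopes were -0.89 ± 0.27, -0.68 ± 0.13, -0.61 ± 0.17 and -0.34 ± 0.11. Those of Vil1 and Gpa33 were -0.15 ± 0.18 and -0.21 ± 0.12. The median genotype difference of the 6 smooth muscle markers ran the same way, at 2.19, 0.48 and -2.53 at 5, 10 and 50 weeks, beside 0.95, 0.77 and -0.82 for the 7 members, and its part in these slopes was not tested.

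At 5 weeks, of 5 members above background on both arrays, Tff3 and Gpa33 were at least 2-fold higher on the null array (3.55% of all genes) and none was 2-fold lower (4.85%). At 10 weeks, of 6 members, Vil1 and Gpa33 were at least 2-fold higher (4.29%) and Fabp1 lower (5.26%). At 50 weeks, of 7 members, none was 2-fold higher (2% of all genes), and Fabp1, Fabp2 and Tff3 were 2-fold lower (4.32%). These are differences between single mice.

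With age itself, 2 of the 5 members above background throughout, Vil1 and Gpa33, were higher at each later age in both genotypes, as were 7.3% of all such genes, and 0 were lower at each later age in both, against 8.16%. Between 5 and 50 weeks Vil1 differed by 1.6 ± 0.23 and Gpa33 by 0.83 ± 0.25 (log2, 2 arrays per age; limma adjusted p = 0.217 and 0.233). The share of genes that passed this contrast was 0.0112%, and 0 of the 7 members did. Both had an unadjusted p under 0.05 in this direction, as 7.46% of all genes had, and 0 members had one in the other, against 11.6%. Between 5 and 10 weeks Vil1 differed by 0.88 ± 0.23 (limma adjusted p = 0.389), and 0 of the 7 members passed, beside 0.0112% of all genes. At an unadjusted p under 0.05, 1 member was higher at 10 weeks, Vil1, against 5.12% of all genes, and 0 were lower, against 7.03%. Cdx2 differed by 3.35 ± 1.24 between 5 and 50 weeks (limma adjusted p = 0.264), with both arrays of 5 weeks not above background.

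A wider set of intestinal genes was read in the same way. Of 85 further genes on the array for intestinal transcription factors, absorptive cells, the brush border, goblet cells, Paneth and crypt cells and the guanylin axis, 57 were above background on all arrays, 11 on none and 17 on some. The null array of 10 weeks read 14 of these 17 (82.4%). The null arrays of 5 and 50 weeks read 3 and 8, and the wild-type arrays of 5, 10 and 50 weeks read 5, 7 and 8. Of all 4107 genes above background on some arrays only, the null array of 10 weeks read 41.2%, and the highest share, 61.7%, was that of wild type at 10 weeks.

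Among the 17, Isx, an intestinal homeobox factor, gave 8.99, 24.0 and 40.6 on the null arrays and 2.55, 2.35 and 4.14 on the wild-type arrays, so that it was above background in the same null mice as Cdx2. Muc3, a membrane mucin of absorptive cells, was above background in the null mouse of 10 weeks and the wild-type mouse of 50 weeks, as was Muc2. Treh, a brush border trehalase, and Myo7b, a myosin of microvilli, were read on the null array of 10 weeks alone, with Cdx1 and Cdh17. Of 24 absorptive cell genes on the array, 12 were above background on all 6 arrays and 6 on none. The sucrase gene Sis and the glucose carrier Slc5a1 were among the 6 above on none. The summed signal of 12 intestinal border markers was 130, 191 and 116 on the null arrays of 5, 10 and 50 weeks, against 54.1, 105.8 and 105.5 on the wild-type arrays. The goblet cell genes Zg16 and Clca1 had the highest signals in this sum, 35388 and 23475 on the null array of 10 weeks. Of the 9 border markers tested, 2 were higher and 4 lower on the null array at all 3 ages, with a median of -0.22, and the 4 were Apob, Apoa1, Apoa4 and Rbp2. The part of neighbouring intestine in these values was not tested.

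**Figure D4:**
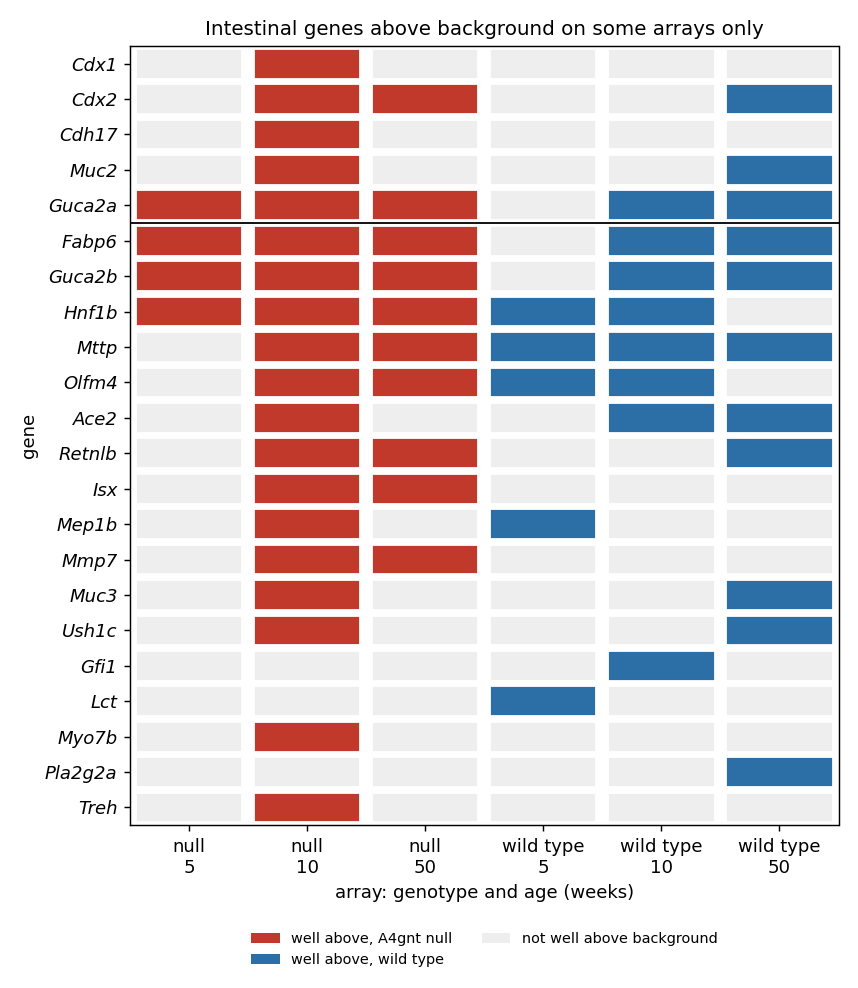
Call of well above background (filled) or not (grey) for the 5 members (top rows) and 17 further intestinal genes that were read on some arrays only, on the null arrays (left, red) and the wild-type arrays (right, blue) of 5, 10 and 50 weeks. The null array of 10 weeks reads 14 of the 17 further genes and all 5 members.

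Of the wider lists, 0 genes passed the test of genotype. Goblet cell genes, 11 of 15 of which were read on all arrays of both genotypes, had a median difference of 0.68. At all 3 ages 6 of 12 tested genes were higher and 0 lower on the null array, beside 26.1% higher and 26.1% lower of all genes tested. This list does not stand for goblet cells alone. Tff1, at 399221 to 439626 over the arrays, is also on the list of surface mucous cell markers. Atoh1 was above background on 0 arrays and Gfi1 on 1. Zg16, a lectin of goblet cell granules, differed by 1.46 ± 0.37, the mucus protein Fcgbp by 1.35 ± 0.35, the membrane mucin Muc13 by 1.40 ± 0.88 and Clca1 by 0.88 ± 0.39. By age, Muc13 differed by -1.01, 2.02 and 3.20 at 5, 10 and 50 weeks. Absorptive cell genes had a median of -0.87, with 2 of 15 higher and 8 lower at all ages. The apolipoprotein Apoc3 differed by -3.24 ± 1.13, Apob by -1.97 ± 0.40 and Apoa4 by -1.55 ± 0.43, and the liver also makes apolipoproteins. Alpi, the intestinal alkaline phosphatase, differed by 2.27 ± 0.95. Its difference was 3.16, 4.06 and -0.40 at 5, 10 and 50 weeks.

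Intestinal transcription factors other than the members had a median of 0.17, with 7 of 12 higher and 3 lower at all ages. For this and the next lists, the share of all genes tested was 26.1% higher and 26.1% lower. Creb3l3 differed by 0.66 ± 0.23, Klf4 by 0.50 ± 0.16, Klf5 by 0.49 ± 0.14 and Hnf4g by 0.49 ± 0.13. Brush border genes had a median of 0.13, with 5 of 12 higher and 4 lower; the keratin Krt20 differed by 0.94 ± 0.14, the protocadherin Cdhr5 by -0.80 ± 0.23, and the actin regulators Eps8 and Espn by 0.53 ± 0.18 and -0.46 ± 0.19. Of the guanylin axis, 3 of 6 genes were higher and 2 lower at all ages, with a median of 0.31. Cftr, the chloride channel that guanylin signalling opens, gave 76.5, 407 and 506 on the null arrays of 5, 10 and 50 weeks, against 70.8, 38.0 and 49.5 on the wild-type arrays, and differed by 2.18 ± 0.74. The list also held Slc9a3, a sodium-proton exchanger, at 1.34 ± 0.55 and Slc26a6, an anion exchanger, at -0.97 ± 0.11. Guca2b, the uroguanylin gene, was not above background in the youngest wild-type mouse and differed by 0.69 ± 0.21. Paneth and crypt genes had a median of 0.16, with 0 of 7 higher and 1 lower at all ages, the lower one being the angiogenin Ang4 (-0.51 ± 0.16). Itln1 differed by 0.71 ± 0.49, lysozyme, Lyz1, by 0.46 ± 0.22, and Olfm4, read on 4 arrays, by -0.47 ± 0.66.

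**Figure D5:**
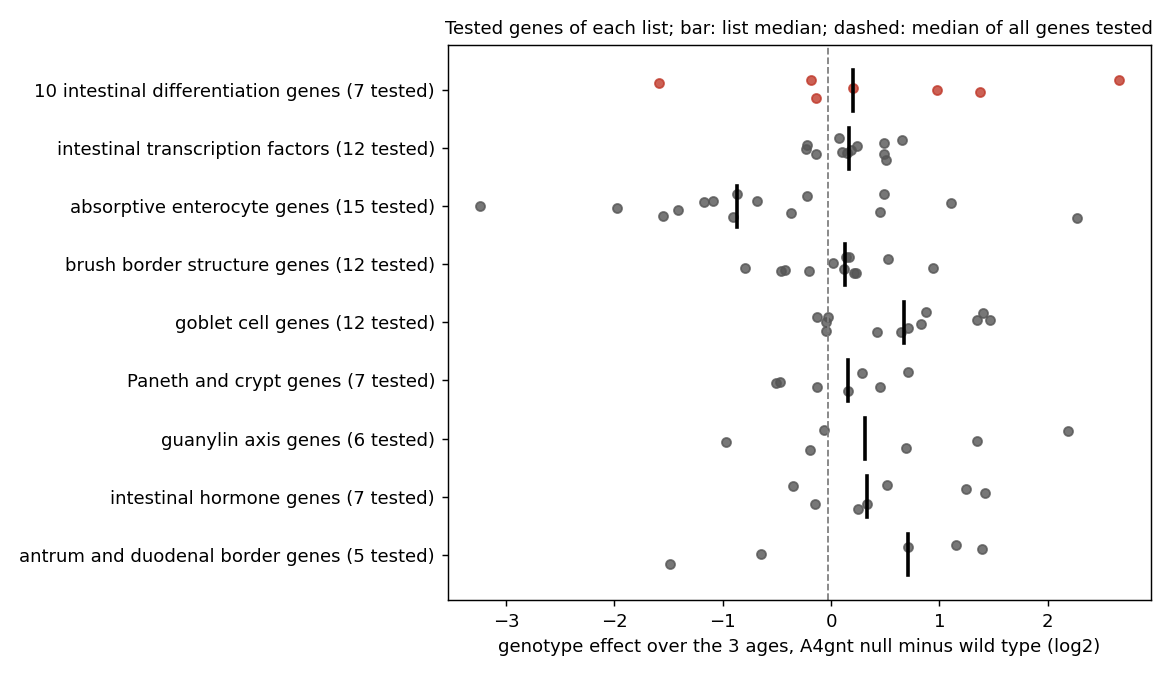
Genotype effect over the 3 ages (horizontal axis, log2, A4gnt null minus wild type) of each tested gene, by list (vertical axis); bars are list medians and the dashed line is the median of all genes tested. Goblet cell genes have a median of 0.68 and absorptive cell genes of -0.87.

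The genes whose levels ran most like those of the other members over the 6 arrays were found among the same 2636 genes, above background on all arrays with an SD of at least 0.5. For Gpa33 they were LOC433064, Kctd12b and Ppih (Pearson r 0.995, 0.991 and 0.991). For Vil1 they included B9d1 and Lin9 (0.995 and 0.994), and for Fabp1 they were Jag2, Meg3 and Perm1 (0.988, 0.981 and 0.981). Fabp2 had Mgst1, B3galt5 and Tph1 at lower values (0.903, 0.902 and 0.875). Between members, Gpa33 and Vil1 had an r of 0.88, and Gpa33 and Fabp1 an r of -0.75. These are descriptions over 6 arrays of the same mice.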

How the data were processed

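RNA of 6 mucosa samples was labelled with Cy3 and read on 1 Agilent array each, per the labels' protocols. The deposited scanner files hold the fluorescence intensity of each spot, extracted with Feature Extraction 10.7.1.1 on a design of build mm9, per the file headers. The authors also deposited a log2 table, whose values equal the log2 processed signal plus a constant per array, from -7.88 to -8.54, within 0.001 for 100% of 39399 probes. Minus the log2 75th percentile was -7.98 to -8.65 on these arrays, and the column medians of the table were -3.56 to -3.89. It served as an alternative.

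Here, log2 processed signals were centred on each array's 75th percentile. Outlier spots (98 to 144 per array) were dropped, 0 were saturated, and spots of a probe were averaged. Genes were named by accession (26044 probes), symbol (3194) or synonym (930), and the brightest probe stood for a gene. The median log2 SD of replicate spots, 0.0643 to 0.0739, and the number of arrays limit the precision. For the effect of genotype, limma 3.58.1 (R 4.3.3) took age as a factor, with 2 residual and 2.12 prior degrees of freedom, and the product with age used log2 age. The fit was tested on simulated data. Where an array was not well above background, the fold is a bound, set by the higher of the probe's signal and the lowest signal well above background there. Single ages were counted at 2-fold.

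The members and lists were chosen with earlier results of these data known. Named were all members, up to 4 genes per list with the largest effect, and the 3 genes most like each member read on all arrays. The genes read on some arrays only, Isx, Muc3, Treh and Myo7b among them, were named after the values were seen. So were Sis and Slc5a1, read on no array, and Alb. Atoh1, Gfi1, Tff1, Rbp2, Apoa1, Amy2a5, Krt4, Krt14 and Krt6a were also named outside the naming rule. One gene that this rule names is not reported here.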

Additional observations from a re-analysis of the deposited data

How the results depend on the processing

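Over 28 results of members with a test, 251 comparisons with an alternative were made, and 239 kept the direction and the side of the threshold. The exceptions were 11 changes of direction and 1 added call, Gpa33 with normexp; the causes were not tested. For the genotype effect, leaving out 1 age pair moved Tff3 between -0.37 and 1.07, Fabp2 between -0.47 and 0.49 and Guca2a between -0.45 and 0.13, and scaling to the median put Fabp2 at 0.0212. For 50 against 5 weeks, Guca2a was 0.18 with median scaling and 0.19 with quantile normalization. For 10 against 5 weeks, Fabp2 was 0.0299 with median scaling, 0.0065 with quantile normalization and 0.0134 with normexp, and Gpa33 was -0.0891 with the mean of its probes. Leaving out the 10-week pair, an alternative added after seeing the data, kept all 7 slopes with age negative. The sign then depends only on the differences at 5 and 50 weeks, so this does not test how far the slopes rest on the 50-week pair. From 5 to 10 weeks the difference rose for Cdx2, Vil1, Gpa33 and Fabp2, and fell for Tff3, Fabp1 and Guca2a. Slopes without the 5-week or the 50-week pair were not fitted. Member differences at a single age were compared 36 times with quantile normalization or normexp. Of these, 25 moved by less than the spread of a difference between replicate spots, and 11 moved further. The 10-week difference of Guca2a, -0.08, was 0.07 with quantile normalization and 0.13 with normexp.

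The 0 genes called for genotype by limma (4216 at an unadjusted p under 0.05) became 1 with quantile normalization, 189 with normexp, 41 with a variance trend and 6 without an age term. The 2 called for 50 against 5 weeks became 13 with normexp, 5 with a variance trend, and 0 with genes above background on all 6 arrays or with no filter. The 2 for 10 against 5 weeks became 5 with normexp and 0 with either filter. Genes at least 2-fold apart numbered 1377, 1636 and 1078 at 5, 10 and 50 weeks, and 537, 844 and 486 with normexp, which adds an offset of 50 to every signal. Signals near the background limit restrict Cdx1, Cdx2, Muc2, Cdh17 and Guca2a most: with normexp the 50-week difference of Cdx2 was 0.17.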

Other observations

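Genes of gut hormones and of the border between stomach and duodenum were read on the same arrays. Pyy, a peptide of the distal gut also made in gastric endocrine cells, gave signals of 216, 442 and 385 on the null arrays of 5, 10 and 50 weeks, against 85.9, 136 and 131 on the wild-type arrays, a difference of 1.42 ± 0.19 (log2, ± SE, n = 3 per genotype). Tac1, the substance P gene, was not above background in the youngest wild-type mouse and differed by 1.25 ± 1.29. Neurog3, which sets the endocrine fate, differed by 0.52 ± 0.41 and secretin, Sct, by -0.35 ± 0.56. Of 7 hormone genes tested, 1 was higher (14.3%) and 0 lower at all 3 ages, beside 26.1% higher and 26.1% lower of all genes tested, and their median was 0.33.

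Pdx1, a homeobox factor of the antrum, duodenum and pancreas, gave 66.5, 155 and 217 on the null arrays and 29.9, 41.5 and 79.1 on the wild-type arrays (1.39 ± 0.25). The antral homeobox factor Nkx6-3 differed by 1.16 ± 0.30 and Bmp4 by 0.71 ± 0.11. Gastrin, Gast, differed by 1.77, -1.20 and -5.03 at 5, 10 and 50 weeks, and by -1.49 ± 1.37 over the ages. Of 5 genes of this border tested, 3 were higher and 1 lower at all 3 ages, with a median of 0.71. Of all genes tested, 26.1% were higher and 26.1% lower. Of 15 genes of gastric cell lineages tested, 3 were higher and 5 lower at all 3 ages, with a median of -0.08. Gkn3 differed by 1.85 ± 0.18, the gland mucin Muc6 by 0.92 ± 0.11, the proton pump Atp4a by -1.33 ± 0.33 and intrinsic factor, Cblif, by -1.0 ± 0.29. None of these genes passed the limma test over all genes.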
